A study of Mus musculus with 15 samples.

Results

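The genes described here encode the 9 subunits and bound inhibitors of the mTOR kinase complexes: Mtor, Mlst8, Deptor, Rptor, Akt1s1, Rictor, Mapkap1, Prr5 and Prr5l. They were taken by name from the 55573 genes of the deposited count table, and all 9 had enough reads to be tested. The table holds RNA sequencing of the trigeminal ganglion (TG), the sensory ganglion that sends nerve fibres to the cornea, from CD1 male mice aged 10 weeks. In every mouse the centre of the right cornea had been stripped of epithelium and anterior stroma, drops were then given 3 times per day, and the TG of the injured side was taken on day 12. The drops held vehicle (n = 5), resolvin D6, a lipid made from docosahexaenoic acid (RvD6-standard, n = 5), or a stereoisomer of it (RvD6-isomer, also called RvD6si, n = 5). The isomer was a pooled chromatographic fraction from tears and culture medium of injured mouse corneas given pigment epithelium-derived factor plus docosahexaenoic acid. By mass spectrometry the paper reports only trace amounts there of the other lipids it targeted. Effects of the isomer and of anything else in that fraction cannot be told apart here. The dose of either lipid in these mice is not given in the sources used here. No label says whether samples of a group were processed separately, so p-values measure only the spread between these samples.

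The mechanistic target of rapamycin (mTOR) is a serine/threonine kinase that works in a pair of complexes. In mTORC1 it is joined by Raptor (Rptor) and PRAS40 (Akt1s1), senses amino acids and growth factors at the lysosome, and drives protein synthesis while restraining autophagy. In mTORC2 it is joined by Rictor, mSIN1 (Mapkap1) and Protor (Prr5 or Prr5l), and phosphorylates kinases of the AGC family such as AKT, SGK and protein kinase C, which act on survival and the cytoskeleton. Lst8 (Mlst8) and the inhibitor Deptor are found in both, and in sensory neurons both complexes have been linked to axon growth after nerve injury.

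Library totals ran from 4125962 to 9903396 counted reads (median 7756538). The group medians were 9147139 reads in vehicle, 7235362 in RvD6-standard and 6862705 in RvD6-isomer samples. Markers of the TG were present in every sample: the summed level of 7 sensory neuron genes was 6636 to 7329 reads scaled to library size (counts per 1000000, CPM) in vehicle, 4314 to 6496 in RvD6-standard and 5673 to 7542 in RvD6-isomer samples. The summed level of 4 satellite glia genes was 6548 to 7688, 4794 to 6168 and 4464 to 6634 CPM in the same order, and 4 myelinating Schwann cell genes summed to 13498 to 20092, 11754 to 17403 and 13484 to 21202 CPM. Genes of blood cells and of tissues next to the ganglion varied more between samples, and some of these lists also differed by group. Erythroid genes summed to 2261 to 4953 CPM in vehicle, 5682 to 10435 in RvD6-standard and 967 to 12793 in RvD6-isomer samples, and skeletal muscle genes to 14.5 to 135, 75.5 to 2169 and 8.00 to 25.7 CPM. Granulocyte precursor genes summed to 41.0 to 189, 192 to 753 and 12.2 to 603 CPM, with Elane and Ctsg at 0 in some samples, and pituitary genes to 8.68 to 3559, 216 to 2282 and 20.5 to 682 CPM, with Cga and Prl at 0 in some samples. Macrophage genes (28.9 to 75.9 CPM over all groups) and endothelial genes (86.3 to 147 CPM) overlapped among the groups. Every RvD6-standard sample lay below every vehicle sample for the sensory neuron and satellite glia genes. For the erythroid and granulocyte precursor genes, every RvD6-standard sample lay above every vehicle sample. Skeletal muscle genes were lower in every RvD6-isomer sample than in any RvD6-standard sample. The part of these cell types in the values below was not tested, and in bulk tissue fewer cells of a type and less RNA per cell cannot be told apart.

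The clearest difference from vehicle among the subunits was that of Rictor, and it was close in size with both lipids. Rictor RNA was 1.67-fold the vehicle level in RvD6-isomer samples and 1.61-fold in RvD6-standard samples, and the 2 lipids differed from each other by a factor of 1.04. Neither difference from vehicle passed the threshold of the main test (an adjusted p of 0.05 over all genes), and none of the other 8 genes did in any comparison.

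The promoters of Rictor and Mtor are shown because Rictor had the largest fold change of the complex against vehicle with either lipid while Mtor, its kinase, had values of -0.17 and -0.09 on the log2 scale. Each sequence is the 250 bases before the RefSeq start of the gene on GRCm38.p6, read along the gene, with letters matching a searched motif in capitals. Rictor is at chr15:6708131-6708380 (plus strand) and Mtor at chr4:148448332-148448581 (plus strand).
Rictor: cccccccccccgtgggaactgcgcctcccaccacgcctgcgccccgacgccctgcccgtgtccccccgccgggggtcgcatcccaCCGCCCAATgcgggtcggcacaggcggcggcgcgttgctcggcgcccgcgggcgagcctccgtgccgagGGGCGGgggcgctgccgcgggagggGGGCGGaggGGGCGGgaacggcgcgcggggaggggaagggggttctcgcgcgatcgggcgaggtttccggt
Mtor: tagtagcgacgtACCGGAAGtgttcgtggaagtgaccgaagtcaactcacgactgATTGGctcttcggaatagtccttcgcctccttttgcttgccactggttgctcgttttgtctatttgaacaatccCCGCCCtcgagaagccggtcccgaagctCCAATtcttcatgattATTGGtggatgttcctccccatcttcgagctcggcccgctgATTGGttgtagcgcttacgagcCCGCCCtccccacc
The Rictor window is 81.2% G or C and holds 4 GC boxes (GGGCGG, either strand) and 1 CCAAT box, whose letters overlap 1 of the GC boxes. The Mtor window is 54.4% G or C and holds 2 GC boxes, 4 CCAAT boxes and 1 ETS motif (ACCGGAAG). Of 32851 mouse promoter windows of this length, 32.7% held a GC box, 33.8% a CCAAT box and 1.7% the ETS motif, each sought on both strands. The CLEAR core (TCACGTGA, in 0.8% of windows), the CRE (TGACGTCA, 1.5%), the NRF1 core (GCATGCGC, 2.3%) and the FOXO motif (GTAAACA, 3.2%) were in neither window. Among the 12 windows found for 8 of the 9 genes (all but Deptor), the NRF1 core and the FOXO motif occurred in the 2 windows of Mapkap1, which overlap. The windows of Rptor (37.6% G or C) and Mlst8 (57.6%) and 1 of the 3 windows of Prr5l held none of the 7 motifs. These are matches of letters only.

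Mtor encodes the kinase itself and lies on chromosome 4 of GRCm38 (148448611 to 148557683, plus strand; 10109 exonic bases). Its normalized read counts (raw counts over the DESeq2 size factor of the sample) were 552, 428, 383, 363 and 479 in the vehicle samples, 483, 570, 406, 312 and 321 in the RvD6-standard samples, and 388, 471, 343, 435 and 323 in the RvD6-isomer samples. The ranges of the 3 groups overlapped, with 2 RvD6-isomer samples below every vehicle sample and 1 RvD6-standard sample above and 2 below every vehicle sample. The log2 fold change by the quasi-likelihood test of edgeR was -0.17 for RvD6-isomer against vehicle (SE 0.18, 95% interval -0.56 to 0.21, adjusted p = 0.699), -0.09 for RvD6-standard against vehicle (SE 0.18, interval -0.48 to 0.30, adjusted p = 0.878) and -0.08 for RvD6-isomer against RvD6-standard (interval -0.47 to 0.30, adjusted p = 0.946).

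**Figure D1:**
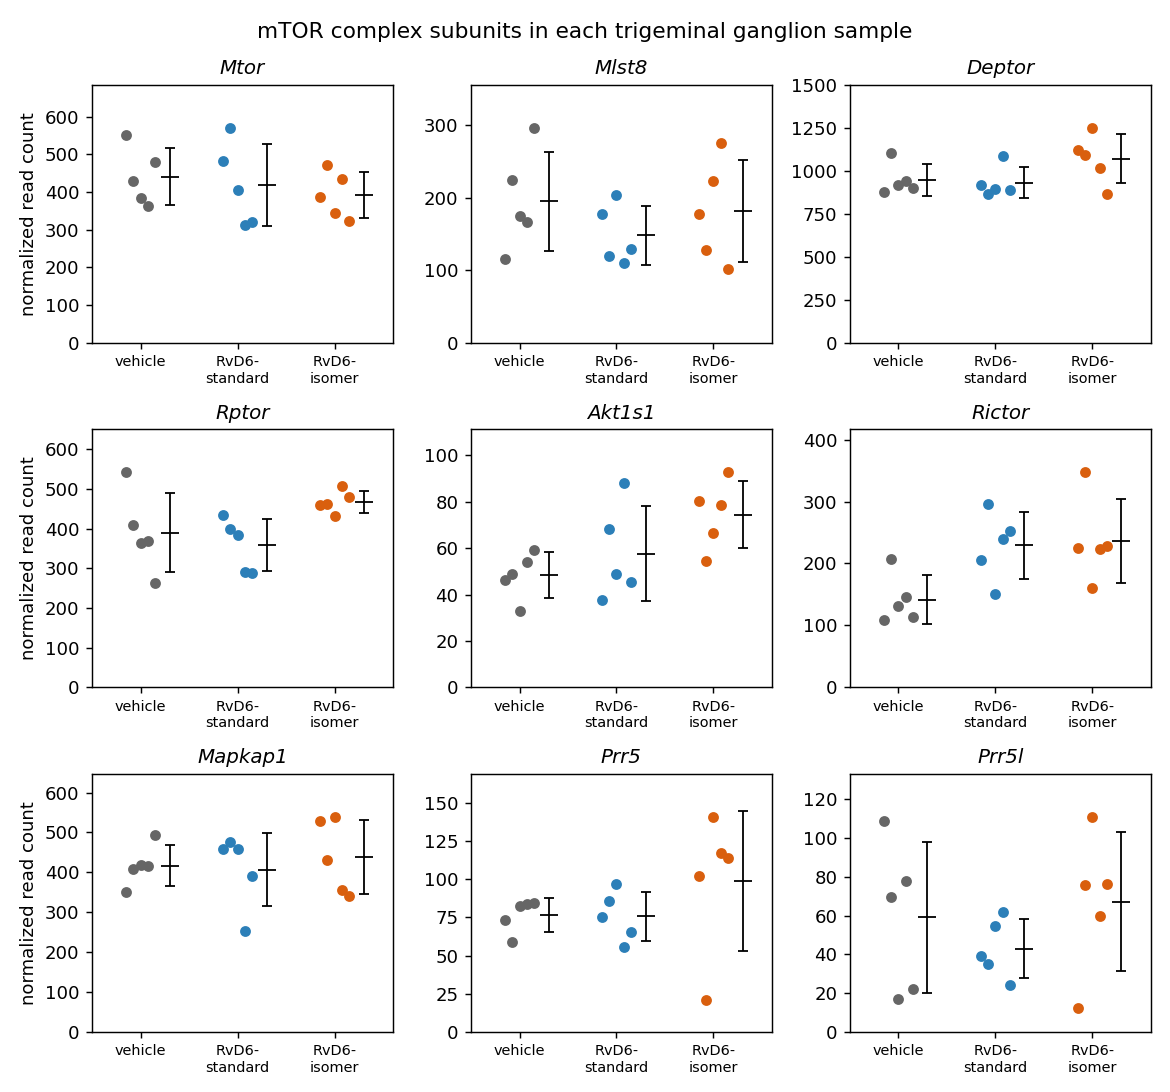
Normalized read count of each subunit gene (y axis, starting at 0) in the 5 vehicle, 5 RvD6-standard and 5 RvD6-isomer TG samples (points); the bar beside each group is the mean ± SD. For Rictor, 4 of 5 RvD6-isomer and 3 of 5 RvD6-standard samples lie above the highest vehicle sample (207).

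Rptor and Akt1s1 belong to mTORC1. Rptor, the scaffold that brings substrates to the kinase, lies on chromosome 11 (119602905 to 119899576, plus strand; 13471 exonic bases). It measured 542, 410, 365, 370 and 264 normalized counts in vehicle, 434, 398, 384, 291 and 289 in RvD6-standard and 460, 462, 431, 507 and 481 in RvD6-isomer samples. The RvD6-isomer samples lay in a narrow band (coefficient of variation 6.01%, against 25.8% in vehicle and 18.3% in RvD6-standard), 4 of them above every RvD6-standard sample, while vehicle spanned the values of both. The log2 fold change of Rptor for RvD6-isomer against RvD6-standard was 0.39 (SE 0.18, 95% interval 0.01 to 0.77), with an unadjusted p of 0.0429 that did not pass adjustment by edgeR (adjusted p = 0.542). The exact permutation test of the means gave p = 0.0159, or 0.143 after adjustment over the 27 tests of 9 genes and 3 pairs of groups. Against vehicle its log2 fold change was 0.26 with RvD6-isomer (SE 0.18, edgeR adjusted p = 0.513) and -0.13 with RvD6-standard (SE 0.18, edgeR adjusted p = 0.793).

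Akt1s1 encodes PRAS40, an inhibitor of mTORC1 that AKT phosphorylates. It lies on chromosome 7 (44848991 to 44855421, plus strand; 3072 exonic bases), of which 162 are shared with Tbc1d17 on the other strand or with Mir707. It was sparsely covered, with 35 to 76 raw reads per sample. Its normalized counts were 46.1, 48.9, 32.9, 54.1 and 59.2 in vehicle, 37.5, 68.5, 49.0, 88.0 and 45.3 in RvD6-standard and 80.2, 54.3, 66.6, 78.6 and 92.7 in RvD6-isomer samples. In RvD6-isomer samples 4 of 5 exceeded every vehicle sample, and in RvD6-standard samples 2 of 5 did. The log2 fold change of RvD6-isomer against vehicle was 0.62 (SE 0.29, 95% interval 0.00 to 1.23; unadjusted p = 0.0489, adjusted p = 0.310 by edgeR). The exact permutation test gave p = 0.0159 and, over the 27 tests, 0.143. For RvD6-standard against vehicle the log2 fold change was 0.24 (SE 0.29, edgeR adjusted p = 0.771), and RvD6-isomer exceeded RvD6-standard by 0.38 (95% interval -0.24 to 0.99, edgeR adjusted p = 0.760).

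Rictor is the scaffold that defines mTORC2. Its gene spans 92023 bases at chromosome 15 (6708379 to 6800401, plus strand), with 38 exon blocks and 16930 exonic bases, none of them shared with another gene, and its raw counts were 107 to 434 reads. The vehicle samples measured 109, 207, 132, 145 and 113 normalized counts (mean 141 ± 39.7, SD, n = 5). The RvD6-standard samples measured 206, 296, 150, 240 and 253 (229 ± 54.5, n = 5) and the RvD6-isomer samples 225, 347, 161, 223 and 228 (237 ± 67.6, n = 5). The highest vehicle sample (207) lay above the lowest sample of each lipid group, so the groups overlapped, but 4 of 5 RvD6-isomer and 3 of 5 RvD6-standard samples exceeded every vehicle sample.

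Against vehicle, the log2 fold change of Rictor was 0.74 in RvD6-isomer samples (SE 0.24, 95% interval 0.24 to 1.24; unadjusted p = 0.00597, adjusted p = 0.131 by edgeR). In RvD6-standard samples it was 0.68 (SE 0.24, 95% interval 0.19 to 1.18; unadjusted p = 0.00990, adjusted p = 0.223 by edgeR). Both comparisons use the same 5 vehicle samples. Between the lipids the log2 difference was 0.06 (SE 0.24, 95% interval -0.44 to 0.55, adjusted p = 0.974 by edgeR), so that an RvD6-isomer level from 0.74 to 1.46 times that of RvD6-standard lay within the interval. The exact permutation test gave p = 0.0159 for RvD6-isomer and 0.0238 for RvD6-standard against vehicle (0.143 and 0.161 after adjustment over 27 tests) and p = 0.841 between the lipids, where 0.00794 is the smallest p that 5 against 5 samples allow.

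Whether Rictor passed depended on the tool. DESeq2 with all samples, the tool of the study, gave log2 fold changes of 0.75 (SE 0.25, adjusted p = 0.0381) for RvD6-isomer and 0.70 (SE 0.25, adjusted p = 0.115) for RvD6-standard against vehicle, so Rictor passed in the first comparison and did not in the second. The difference between these effects, which is the RvD6-isomer against RvD6-standard contrast, was 0.05 (SE 0.25, DESeq2 adjusted p = 0.982). The unadjusted DESeq2 p of Rictor was 0.00261 for RvD6-isomer and 0.00476 for RvD6-standard against vehicle. In the first comparison DESeq2 called 8.13% of the 11321 genes to which it gave an adjusted p. In the second it called 1.92% of 19190, so the adjustment ran over different numbers of genes.

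**Figure D2:**
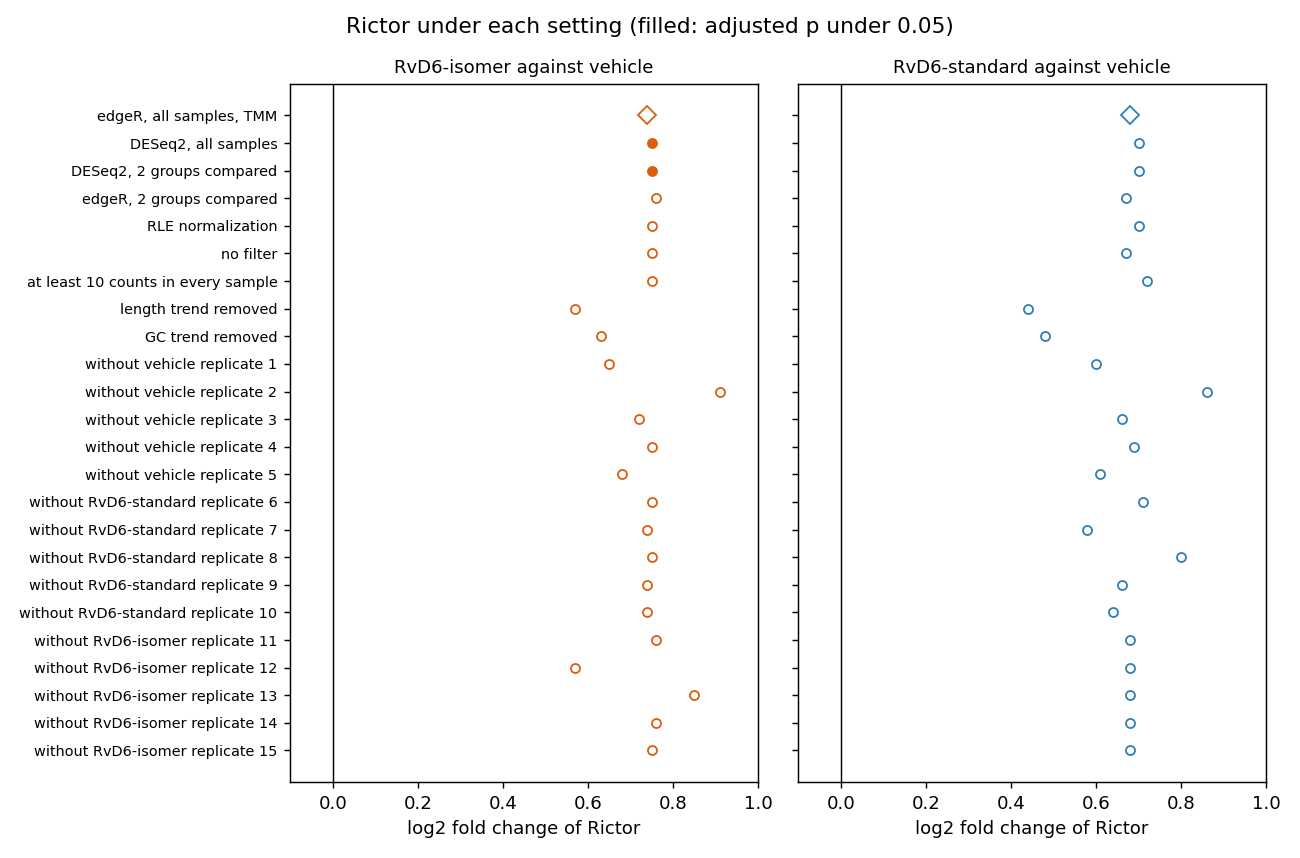
Log2 fold change of Rictor (x axis) for RvD6-isomer (left) and RvD6-standard (right) against vehicle under each setting (y axis); the diamond is edgeR with all samples, and filled marks have an adjusted p under 0.05. All marks lie above 0, between 0.57 and 0.91 on the left and between 0.44 and 0.86 on the right, and 2 marks, both of DESeq2 on the left, are filled.

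Mapkap1 encodes mSIN1, which holds substrates to mTORC2 and is needed for its assembly. On chromosome 2 (34406771 to 34624950, plus strand; 4059 exonic bases), it measured 351, 408, 418, 415 and 493 normalized counts in vehicle, 458, 476, 458, 252 and 391 in RvD6-standard and 529, 431, 539, 355 and 340 in RvD6-isomer samples. The groups overlapped over most of their range. Its log2 fold change was 0.07 for RvD6-isomer (SE 0.19, edgeR adjusted p = 0.900) and -0.05 for RvD6-standard against vehicle (SE 0.19, edgeR adjusted p = 0.939), and 0.12 between the lipids (SE 0.19, edgeR adjusted p = 0.902).

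Prr5 and Prr5l encode Protor-1 and Protor-2, which bind Rictor and are not required for the assembly of mTORC2. Prr5 (chromosome 15, 84669620 to 84703673, plus strand; 1917 exonic bases) measured 73.5, 58.7, 82.6, 83.6 and 84.7 normalized counts in vehicle, 75.0, 85.6, 96.7, 55.8 and 65.4 in RvD6-standard and 102, 20.8, 141, 117 and 114 in RvD6-isomer samples. In the RvD6-isomer group 4 samples were above every vehicle sample and replicate 12, with 26 raw reads, was below them all. That sample was also the one with the highest Rictor value (347). The log2 fold change of Prr5 was 0.36 for RvD6-isomer against vehicle (SE 0.36, edgeR adjusted p = 0.674), and 0.63 without that sample (edgeR adjusted p = 0.189). For RvD6-standard it was -0.03 (SE 0.36, edgeR adjusted p = 0.978), and 0.39 between the lipids (SE 0.36, edgeR adjusted p = 0.796).

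Prr5l (chromosome 2, 101714285 to 101883027, minus strand; 4967 exonic bases) varied more within groups than any other subunit gene in vehicle and RvD6-isomer samples. It measured 109, 69.4, 16.9, 77.7 and 22.2 normalized counts in vehicle (coefficient of variation 66.0%), 39.1, 35.1, 54.6, 62.0 and 24.2 in RvD6-standard (35.4%) and 12.4, 75.9, 111, 60.0 and 76.4 in RvD6-isomer samples (53.4%). Its intervals were accordingly the widest: the log2 fold change was 0.19 (95% interval -0.91 to 1.28) for RvD6-isomer and -0.48 (-1.58 to 0.63) for RvD6-standard against vehicle, and 0.66 (-0.44 to 1.77) between the lipids, with edgeR adjusted p of 0.903, 0.736 and 0.762.

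Mlst8 encodes a subunit that binds the kinase domain in both complexes, and Deptor an inhibitor of both. Mlst8 (chromosome 17, 24473551 to 24479078, minus strand; 4435 exonic bases) shares 22.5% of its exonic bases with Bricd5 on the other strand, and since strand was not used in counting its values are uncertain. It measured 116, 224, 174, 166 and 296 normalized counts in vehicle, 177, 120, 203, 110 and 129 in RvD6-standard and 178, 128, 223, 275 and 101 in RvD6-isomer samples, which overlapped. Its log2 fold change was -0.11 (SE 0.29, edgeR adjusted p = 0.898) for RvD6-isomer and -0.42 (SE 0.29, edgeR adjusted p = 0.565) for RvD6-standard against vehicle, and 0.31 (SE 0.29, edgeR adjusted p = 0.807) between the lipids.

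Deptor (chromosome 15, 55112317 to 55259271, plus strand; 8874 exonic bases) was the most evenly expressed of the genes within vehicle. Its normalized counts were 877, 1104, 916, 940 and 899 in vehicle, 915, 866, 897, 1088 and 888 in RvD6-standard and 1124, 1095, 1250, 1016 and 863 in RvD6-isomer samples. In RvD6-isomer samples 2 of 5 were above and 1 was below all vehicle samples. The log2 fold change was 0.17 (SE 0.13, 95% interval -0.09 to 0.44, edgeR adjusted p = 0.541) for RvD6-isomer and -0.04 (SE 0.13, interval -0.30 to 0.23, edgeR adjusted p = 0.928) for RvD6-standard against vehicle, and 0.21 (interval -0.06 to 0.48, edgeR adjusted p = 0.672) between the lipids.

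**Figure D3:**
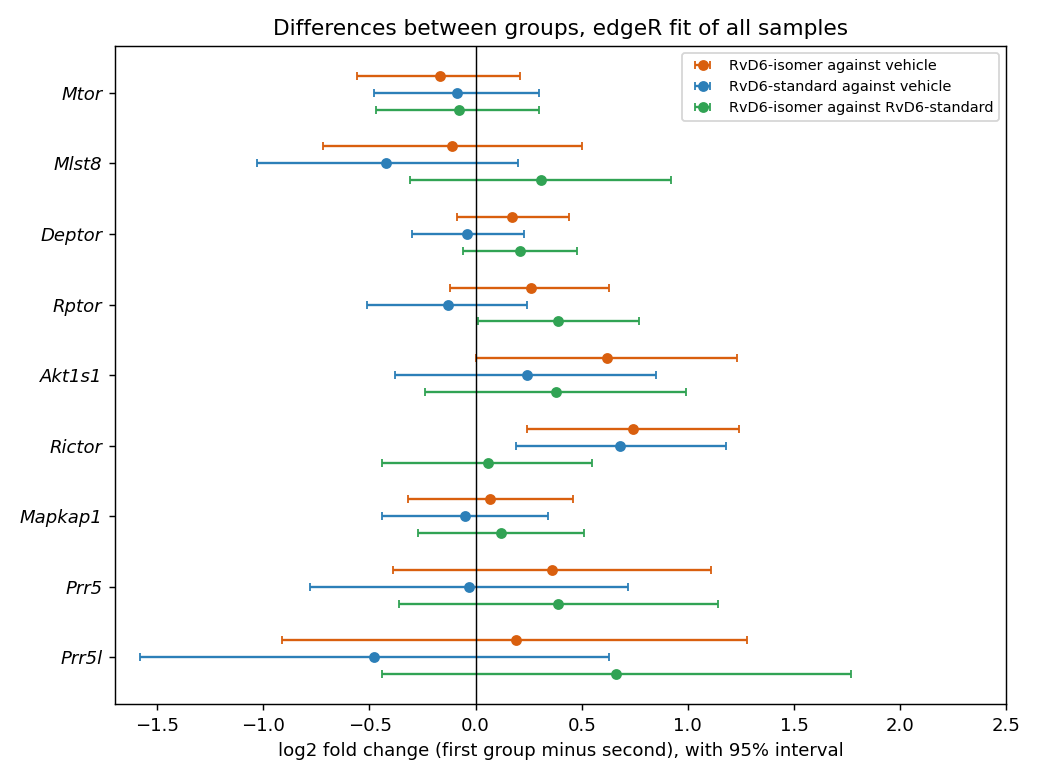
Log2 fold change of each subunit gene (x axis, with 95% interval) in the 3 comparisons, from the edgeR fit of all samples. The intervals of Rictor against vehicle lie above 0 for both lipids (0.24 to 1.24 and 0.19 to 1.18), and its interval between the lipids covers 0 (-0.44 to 0.55).

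Counted over the complex, the RvD6-isomer against vehicle comparison called 0 of the 9 genes by edgeR, where 0.670% of the 16567 genes tested were called. DESeq2 called 1 of 9 (Rictor), where it called 8.13% of the 11321 genes to which it gave an adjusted p. At an unadjusted edgeR p under 0.05 there were 2 of 9, Rictor and Akt1s1, both higher with RvD6-isomer, beside 8.69% of all genes that were higher at that p. For RvD6-standard against vehicle, edgeR and DESeq2 each called 0 of 9. There edgeR called 0% of all genes tested and DESeq2 1.92% of the 19190 genes to which it gave an adjusted p. At an unadjusted edgeR p under 0.05, 1 of 9 (Rictor) was higher with RvD6-standard, beside 7.63% of all genes. Between the lipids edgeR and DESeq2 called 0 of 9. There edgeR called 0.235% of all genes tested and DESeq2 0.936% of the 19769 genes to which it gave an adjusted p. At an unadjusted edgeR p under 0.05, 1 of 9 (Rptor) was higher with RvD6-isomer, beside 4.18% of all genes. Groups that did not overlap were seen for 0 of 9 genes in each comparison, beside 4.88%, 3.72% and 1.74% of all genes in the same order. With 9 genes these counts do not set the complex apart from the background. Of the 27 permutation tests, 0 passed after adjustment.

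The log2 fold change was above 0 in 7 of 9 genes for RvD6-isomer against vehicle (6 of 9 with the length trend removed) beside 51.2% of all genes, with a median of 0.19 against 0.02 over all genes tested. That median was 0.07 against -0.03 with the length trend removed, and ran from 0.10 to 0.34 as samples were left out. It was above 0 in 2 of 9 for RvD6-standard against vehicle (3 of 9 with at least 10 counts required in every sample) beside 52.2%, with a median of -0.05 against 0.02, or of -0.23 against -0.08 with the length trend removed. Between the lipids it was above 0 in 8 of 9 (9 of 9 with the GC trend removed) beside 49.5%, with a median of 0.31 against 0.00. The 3 comparisons share samples. By rank among the 16567 genes, the fold change of Rictor stood 9.02% from the top for RvD6-isomer and 12.3% from the top for RvD6-standard against vehicle, and 43.2% from the top between the lipids.

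The fold changes against vehicle also moved with exonic length. Over 10 bins of equal size, the bin with the greatest exonic length, which holds Rictor, Rptor and Mtor, had a median log2 fold change of 0.14 for RvD6-isomer and 0.17 for RvD6-standard against vehicle. In the bin with the smallest it was -0.29 and -0.11. With the trend on length taken out of each sample, the log2 fold change of Rictor against vehicle was 0.57 (SE 0.20, edgeR adjusted p = 0.190) with RvD6-isomer and 0.44 (SE 0.20, edgeR adjusted p = 0.297) with RvD6-standard, and the lipids differed by 0.13 (95% interval -0.29 to 0.54). Rptor went from 0.26 to 0.13 for RvD6-isomer and from -0.13 to -0.30 for RvD6-standard against vehicle, and Mtor from -0.17 to -0.33 and from -0.09 to -0.28. Mapkap1 turned from 0.07 to -0.06 for RvD6-isomer against vehicle. Deptor went from 0.17 to 0.01 for RvD6-isomer and from -0.04 to -0.23 for RvD6-standard against vehicle. Akt1s1, with a smaller exonic length (3072 bases), went from 0.62 to 0.57 for RvD6-isomer against vehicle (SE 0.28, edgeR adjusted p = 0.378).

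**Figure D4:**
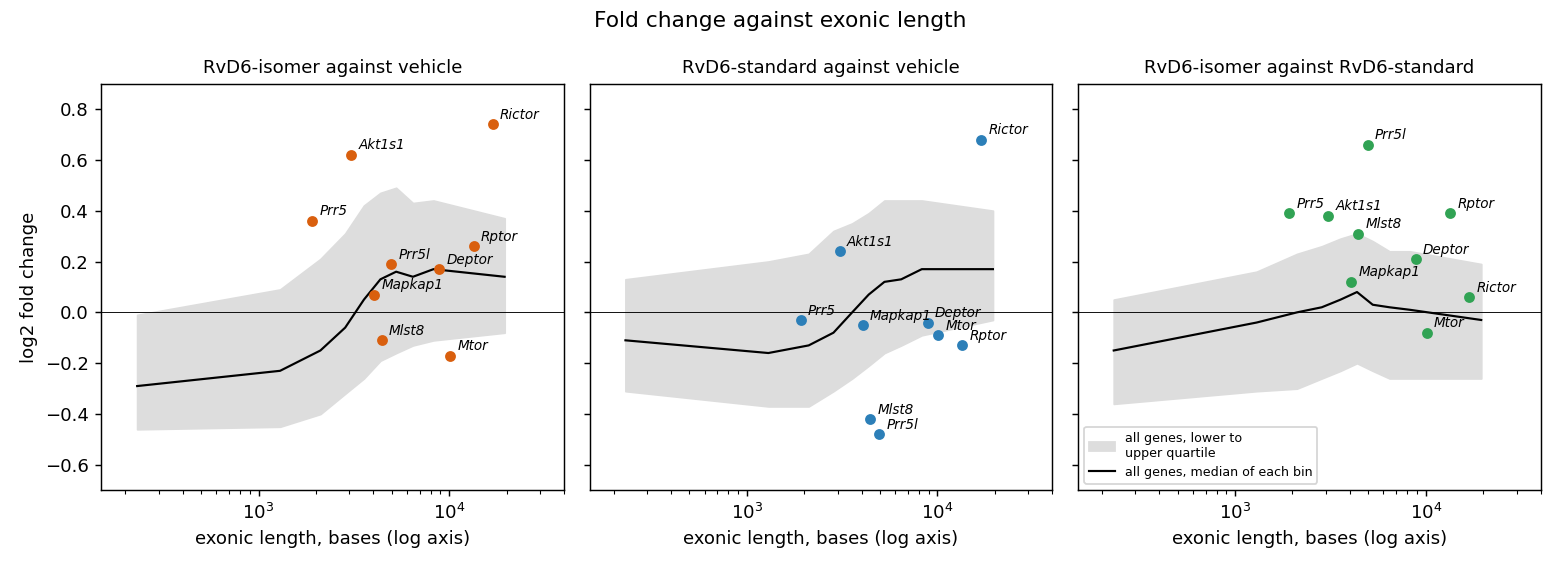
Log2 fold change (y axis) against exonic length in bases (log x axis) in the 3 comparisons; points are the subunit genes, the line is the median and the grey band the lower to upper quartile of all genes in each of 10 bins by length. Rictor, at 16930 bases, lies above the band against vehicle (0.74 and 0.68) and within it between the lipids (0.06).

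Levels were compared between genes per exonic length, as RPKM (reads per kilobase scaled to library size). In vehicle samples Deptor (14.9 ± 1.43 RPKM, SD, n = 5) and Mapkap1 (14.3 ± 1.73) were the most abundant and overlapped each other. Mlst8 (6.14 ± 2.14), Mtor (6.08 ± 1.06), Prr5 (5.58 ± 0.793) and Rptor (4.04 ± 1.05) followed as a group of overlapping neighbours, set apart from Mapkap1 above (lowest 12.1) and from Akt1s1 below (2.19 ± 0.454, highest 2.69). Prr5l (1.66 ± 1.10) and Rictor (1.16 ± 0.328) were the lowest and overlapped, so the scaffold of mTORC2 was present at less RNA per length than that of mTORC1 in vehicle ganglia (Rictor 0.898 to 1.71, Rptor 2.73 to 5.62 RPKM). Rictor RNA measured 1.87 ± 0.431 RPKM in RvD6-standard and 1.94 ± 0.540 RPKM in RvD6-isomer samples, where it stood eighth of the 9 genes and overlapped Prr5l. The order by TPM (transcript share of each library) was the same in each group. TPM uses the same counts and exonic lengths as RPKM, so this is not a separate check of the order.

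**Figure D5:**
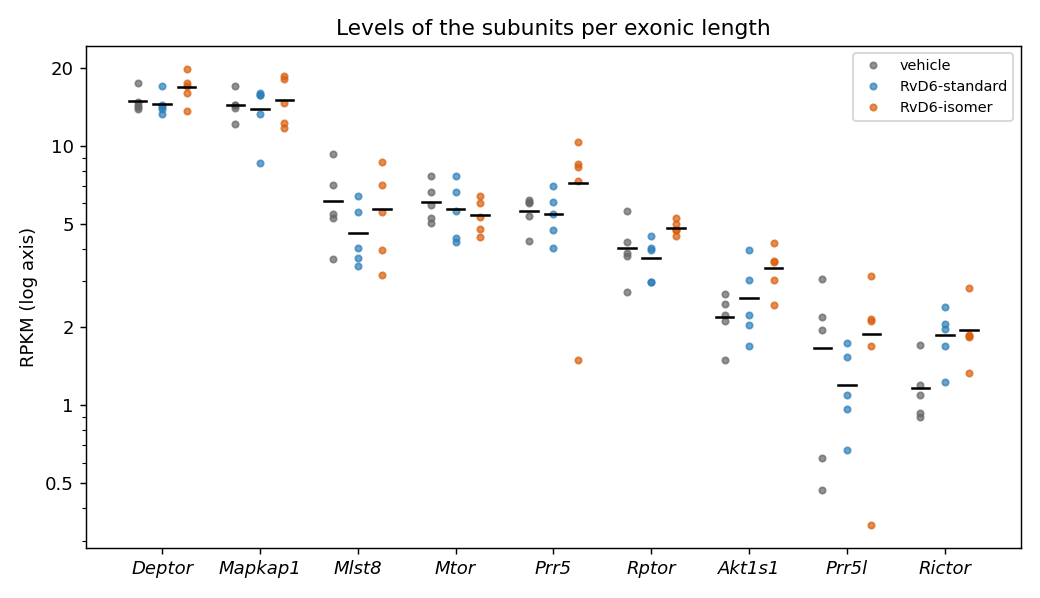
Level per exonic length of each subunit gene (RPKM, log y axis) in the samples of each group (points; black lines are group means), ordered by the vehicle mean. Deptor and Mapkap1 lie above 8 RPKM in every sample and Rictor below 3.

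Across the 15 samples, the genes whose log2 CPM followed that of Rictor most closely were Mark2 (a microtubule-affinity regulating kinase; Pearson r 0.92), Tox (a nuclear HMG-box protein; 0.90), Spred2 (an inhibitor of Ras signalling; 0.87), Marcks (an actin-binding substrate of protein kinase C; 0.86) and Smoc1 (a secreted calcium-binding protein; 0.86). These genes were picked as the highest r over the 16567 tested, and the r that such picking alone would give was not tested. On deviations from the group means the values were 0.87, 0.85, 0.80, 0.78 and 0.74. The ranks among all other genes were then 3, 6, 24, 34 and 85 in the same order, with Tef and Wapl (each 0.87) above Mark2. Marcks averaged 260 normalized counts in vehicle, 433 in RvD6-standard and 564 in RvD6-isomer samples. The samples were prepared in the same way but came from 3 groups and differed in depth (4125962 to 9903396 reads). The part of depth in these correlations was not tested. Among the subunits themselves, r with Rictor ran from -0.44 (Prr5) to 0.36 (Akt1s1), and that with Mtor was -0.13. On deviations from group means these were -0.67 for Prr5, 0.04 for Akt1s1 and 0.08 for Mtor. The highest r between any pair of subunits was 0.51 over the 15 samples (Mlst8 and Mapkap1). On deviations from group means it was 0.53 (Mtor and Rptor).

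Further genes of the pathway were read from 5 lists with 58 genes, 54 of which were tested, and edgeR called none in any comparison. At an unadjusted edgeR p under 0.05, 6 were higher and 4 lower with RvD6-isomer than with vehicle, 3 higher and 1 lower with RvD6-standard than with vehicle, and 2 higher and 2 lower with RvD6-isomer than with RvD6-standard. Over all genes the shares higher and lower were 8.69% and 7.30%, 7.63% and 5.99%, and 4.18% and 4.64%, and the counts among the 54 genes were not read as set apart from these. The median over all genes was 0.02 for each lipid against vehicle, beside which the medians of the lists below stand. DESeq2 called Fkbp1a in the first comparison (adjusted p = 0.0484), Pkn2 in the second (adjusted p = 0.0297) and none in the third.

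Of the regulators upstream of mTORC1, the 7 tested genes of the TSC and Rheb list had a median log2 fold change of -0.13 with RvD6-isomer and -0.19 with RvD6-standard against vehicle. The genes named from each list were picked for the smallest edgeR p with one or the other lipid against vehicle. Rheb, the GTPase that activates mTORC1, averaged 1967 ± 66.3 normalized counts in RvD6-isomer and 2349 ± 337 in vehicle samples (log2 fold change -0.26, SE 0.12, edgeR adjusted p = 0.310). With RvD6-standard Rheb averaged 2065 ± 270 (-0.20 against vehicle, SE 0.12, edgeR adjusted p = 0.504). Ddit4l, an inhibitor of mTORC1, averaged 114 ± 96.6 in RvD6-standard and 44.5 ± 20.1 in vehicle samples (1.34, SE 0.59, edgeR adjusted p = 0.329). In RvD6-isomer samples it averaged 31.1 ± 13.4, with a log2 fold change of -0.52 against vehicle (SE 0.59, edgeR adjusted p = 0.720) and -1.86 against RvD6-standard (SE 0.60, edgeR adjusted p = 0.314). Of the 13 genes that recruit mTORC1 to the lysosome the median was -0.05 and 0.02. Lamtor5, a Ragulator subunit, averaged 541 ± 98.2 in RvD6-isomer and 722 ± 93.5 in vehicle samples (-0.42, SE 0.15, edgeR adjusted p = 0.165). Its RvD6-standard mean was 624 ± 69.5 (-0.23 against vehicle, SE 0.15, edgeR adjusted p = 0.530). Fnip2, a partner of folliculin, was sparse at 28.5 ± 23.4 in RvD6-standard and 8.79 ± 9.36 in vehicle samples (1.67, SE 0.84, edgeR adjusted p = 0.398), and at 34.6 ± 35.0 in RvD6-isomer samples (1.97 against vehicle, SE 0.84, edgeR adjusted p = 0.257).

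Among the 9 assembly and binding partners of the kinase, the medians were 0.07 and 0.02. Fkbp1a, the protein through which rapamycin binds mTOR, averaged 4639 ± 542 in RvD6-isomer, 4653 ± 552 in RvD6-standard and 5839 ± 486 in vehicle samples. Its log2 fold change was -0.34 (SE 0.12) with each lipid against vehicle, with edgeR adjusted p of 0.164 and 0.223. Wac, an adaptor in the assembly of mTORC1, averaged 503 ± 184 in RvD6-isomer and 330 ± 28.7 in vehicle samples (0.60, SE 0.21, edgeR adjusted p = 0.157). Its RvD6-standard mean was 403 ± 83.8 (0.27 against vehicle, SE 0.21, edgeR adjusted p = 0.602).

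Of the targets downstream, the 13 tested substrates of mTORC1 had a median of 0.26 with RvD6-isomer and 0.35 with RvD6-standard against vehicle, with 11 and 12 of 13 above 0, beside 51.2% and 52.2% of all genes. Of these, 2 and 0 were higher at an unadjusted edgeR p under 0.05, beside 8.69% and 7.63% of all genes. Lpin1, a phosphatidate phosphatase and transcriptional co-regulator, averaged 1090 ± 124 in RvD6-isomer, 827 ± 245 in RvD6-standard and 809 ± 160 in vehicle samples (0.42 for RvD6-isomer against vehicle, SE 0.18, edgeR adjusted p = 0.249). For RvD6-standard against vehicle Lpin1 was at 0.01 (SE 0.18, edgeR adjusted p = 0.980). Eif4ebp2, a repressor of translation, averaged 173 in RvD6-standard and 131 in vehicle samples (0.39, SE 0.21, edgeR adjusted p = 0.440). Its RvD6-isomer mean was 134 (0.02 against vehicle, SE 0.21, edgeR adjusted p = 0.972). The 12 tested AGC kinases phosphorylated by mTORC2 had medians of 0.30 and 0.03. Prkcb, a conventional protein kinase C, averaged 531 ± 140 in RvD6-isomer and 372 ± 51.3 in vehicle samples (0.51, SE 0.22, edgeR adjusted p = 0.249). Its RvD6-standard mean was 353 ± 98.7 (-0.09 against vehicle, SE 0.22, edgeR adjusted p = 0.900). Pkn2, a kinase of the protein kinase N family, averaged 247 ± 53.0 in RvD6-standard, 170 ± 55.0 in RvD6-isomer and 138 ± 25.7 in vehicle samples (0.83 for RvD6-standard against vehicle, SE 0.23, edgeR adjusted p = 0.155). For RvD6-isomer against vehicle Pkn2 was at 0.30 (SE 0.23, edgeR adjusted p = 0.557). In the other lists, the genes above 0 with RvD6-isomer and RvD6-standard were 1 and 2 of 7 (TSC and Rheb) and 5 and 7 of 13 (lysosomal recruitment). They were 7 and 5 of 9 among assembly and binding partners and 8 and 7 of 12 among AGC kinases. All these counts use the same vehicle samples, without removal of the length trend. The values are RNA levels and say nothing of phosphorylation.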

How the data were processed

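Total RNA of 15 TG was made into oligo-dT-primed Smart-seq2 and Nextera XT libraries, which carry no strand and no molecular identifiers. The authors aligned reads to GRCm38 with Rsubread and GENCODE M22 and deposited raw counts per gene from featureCounts, with exonic lengths. The submitters' processing notes name Subread 1.6.5 and R 3.6.1, and the file header names featureCounts 1.5.0-p1. Symbols came from GENCODE M21 (99.7% of identifiers) and promoters from RefSeq.

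The members and gene lists were chosen with earlier results of these data known. The deposited counts of all 15 samples were fitted together with edgeR 4.0.16 in R 4.3.3 (TMM, quasi-likelihood, filter at a count of 10 and a total of 15), which kept 16567 genes. Benjamini-Hochberg adjustment ran over all of them, with a threshold of 0.05. Normalized counts (DESeq2 1.42.0 size factors) of each member also went through exact permutation tests, 2-sided (SciPy), adjusted over 27 tests. RPKM used TMM library sizes. Replicates of a group differed by more than sampling noise (chi-square per degree of freedom 11.3 to 49.2).

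Genes named were all 9 members, any list gene called by edgeR, the gene of each list with the smallest edgeR p for either lipid against vehicle, and the 5 genes closest to Rictor. Of the 58 list genes, 54 passed the filter. Alternatives were DESeq2, 2-group fits, RLE normalization, other filters, removal of length or GC trends (lowess, span 0.3), other scalings and a log2 scale (pseudocount 1) for the permutation test, TPM for RPKM, deviations from group means for the correlations, and each sample left out. The statistics were checked on simulated data.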

Additional observations from a re-analysis of the deposited data

Results flagged for a closer look

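Of 27 sets of 5 samples (9 genes in 3 groups), 2 held a sample far from the rest, both for Deptor. In vehicle, replicate 2 had 1104 normalized counts and the other 4 samples 877 to 940. In RvD6-standard, replicate 9 had 1088 and the other 4 samples 866 to 915. Chance alone places about 1 set in 20 beyond this limit.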

How the results depend on the processing

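No paired analysis was possible because the labels number the samples 1 to 15 and share no number between groups. Rictor stayed above vehicle with both lipids under every alternative (log2 0.57 to 0.91 and 0.44 to 0.86), passing only with DESeq2 for RvD6-isomer: 0.75 with all samples and 0.75 with the 2 groups (adjusted p = 0.0381 and 0.0417; other alternatives up to 0.255, none under 0.05). Thus DESeq2 called 1 member there in each fit, and the other alternatives 0. With the GC trend removed, Rictor was 0.63 for RvD6-isomer against vehicle (95% interval 0.14 to 1.12). For RvD6-standard against vehicle it was then 0.48, with an interval that covered 0 (-0.01 to 0.97). Between the lipids Rictor ran from -0.12 to 0.16, and from -19.9 to 26.6 normalized counts, as samples were left out, below 0 without RvD6-standard replicate 8 or RvD6-isomer replicate 12.

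Genes called for RvD6-isomer against vehicle (111) became 920 with DESeq2, 979 with DESeq2 on 2 groups, 315 with at least 10 counts in every sample and 47 with the length trend removed. For RvD6-standard against vehicle (0) they became 369, 664, 38 with edgeR on 2 groups, 56 with no filter and 24 with at least 10 counts. Between the lipids (39) they became 185, 182, 17, 59 and 23 in that order. With 1 sample left out they ran from 0 (without RvD6-isomer replicate 11) to 229 (without RvD6-standard replicate 9), from 0 to 51 (without RvD6-isomer replicate 15) and from 2 (without RvD6-isomer replicate 11, 13 or 14) to 156 (without RvD6-isomer replicate 15). The first count was 6 to 13 without any 1 vehicle sample, 9, 68 and 168 without RvD6-isomer replicate 14, 13 and 12. The second was 1 without vehicle replicate 2 and 17 without RvD6-standard replicate 7, and the third 13, 13 and 25 without RvD6-standard replicate 8, 9 and 10. Of the list genes DESeq2 called 1 for RvD6-isomer (0 on 2 groups) and 1 for RvD6-standard against vehicle in each fit. The cause was not tested.

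Signs turned for genes near 0. Mapkap1 was -0.06 for RvD6-isomer against vehicle with the length trend removed, Prr5 0.00 for RvD6-standard against vehicle with at least 10 counts, and Mtor 0.02 between the lipids with the GC trend removed. With samples left out, RvD6-isomer against vehicle ran from -0.31 to 0.10 for Mlst8, -0.02 to 0.15 for Mapkap1 and -0.08 to 0.53 for Prr5l. RvD6-standard against vehicle ran from -0.25 to 0.01 for Rptor (-62.6 to 6.94 normalized counts), -0.11 to 0.07 for Mapkap1, -0.14 to 0.05 for Prr5 and -0.11 to 0.02 for Deptor. Between the lipids Mtor ran from -0.17 to 0.05, Mapkap1 from -0.01 to 0.20, and the log2 ratio of Rictor to Mtor from -0.03 to 0.24. GC came from GENCODE M21 transcripts, a choice made after seeing the files. Akt1s1, Prr5 and Prr5l had the fewest reads.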

Other observations

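The ratio of Rictor to the other scaffold and to the kinase within a sample does not depend on the scaling of the library. It was examined after the values of the genes had been seen. The log2 ratio of Rictor to Mtor per exonic length was -2.41 ± 0.54 in vehicle (SD, n = 5), -1.61 ± 0.49 in RvD6-standard and -1.50 ± 0.28 in RvD6-isomer samples. RvD6-isomer exceeded vehicle by 0.91 (exact permutation p = 0.0159, or 0.0952 after adjustment over 6 tests), RvD6-standard exceeded vehicle by 0.80 (exact permutation p = 0.0556, adjusted 0.111), and the lipids differed by 0.11 (exact permutation p = 0.675). The log2 ratio of Rictor to Rptor ran from -2.65 to -1.31 in vehicle, from -1.69 to -0.52 in RvD6-standard and from -1.75 to -0.75 in RvD6-isomer samples. It exceeded vehicle by 0.80 with RvD6-standard (exact permutation p = 0.0556, adjusted 0.111) and by 0.44 with RvD6-isomer (exact permutation p = 0.175, adjusted 0.262), and RvD6-isomer stood 0.36 below RvD6-standard (difference -0.36, exact permutation p = 0.254). None of the 6 differences passed after adjustment. As each sample was left out in turn, the difference of RvD6-standard from vehicle ran from 0.59 to 0.98 for the ratio to Rptor and from 0.63 to 0.96 for the ratio to Mtor, with unadjusted exact permutation p from 0.0317 to 0.111 for each. The unadjusted p was under 0.05 without vehicle replicate 2 or RvD6-standard replicate 8, the highest vehicle and the lowest RvD6-standard sample, and not otherwise. The difference of RvD6-isomer from vehicle ran from 0.74 to 1.06 for the ratio to Mtor (unadjusted exact permutation p from 0.0159 to 0.0317). For the ratio to Rptor it ran from 0.23 to 0.56 (unadjusted exact permutation p from 0.0635 to 0.349).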
